A study of Mus musculus with 9 samples.

Results

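The nitric oxide and endothelin vasoactive genes were examined as 9 genes chosen by symbol, Nos3, Nos2, Cav1, Ddah1, Ddah2, Edn1, Ednra, Ednrb and Ece1. All 9 were found among the 24421 genes of the count table, and all 9 had enough counts to be among the 13901 genes tested. RNA came from tumors that bEnd.3 cells formed in the flank of athymic male Nu/Nu nude mice, which lack T cells. bEnd.3 is a single mouse endothelial line immortalized by the polyoma middle T antigen, and it serves as a model of hemangioma of infancy. The groups were 5 tumors from mice given R-propranolol, the stereoisomer of propranolol with little activity at beta-adrenergic receptors, and 4 tumors from mice given the ethanol vehicle. R-propranolol was injected into the peritoneum at 6 mg/kg per day, 5 times a week, from the second day after inoculation, and the vehicle was ethanol in DPBS by the same route. The sources used here do not give the age of the mice.

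Nitric oxide is a short-lived gas that relaxes smooth muscle, and endothelium makes it from arginine. Caveolin-1 holds the endothelial synthase in caveolae in a less active state. Asymmetric dimethylarginine, which the DDAH enzymes break down, inhibits all nitric oxide synthases. Endothelin-1 acts in the opposite direction as a strong vasoconstrictor peptide, which endothelin-converting enzyme cuts from its precursor. Smooth muscle carries mainly the receptor A, while endothelium carries the receptor B, which clears endothelin and can trigger release of nitric oxide.

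Each tumor gave 1 library, and the counts in genes summed to between 20599900 and 27852600 per library. Levels are given as CPM, the counts of a gene relative to all counts in its library, with library totals adjusted by the trimmed mean of M values (TMM). A log2 fold change is R-propranolol over vehicle from edgeR's quasi-likelihood test, and a change was called at an adjusted p under 0.05 over all genes tested. R-propranolol replicate 5 stood apart from the other tumors, since 15 skeletal muscle genes summed to 201872 CPM in it and to between 8.26 and 466 CPM in each of the other 8. The 12 endothelial markers were detected in every tumor, with summed levels of 807 to 1315 CPM in R-propranolol-treated and 973 to 1195 CPM in vehicle-treated tumors. Tumors contain host cells as well as bEnd.3 cells, and in such mixed tissue fewer cells of a type and less RNA per cell cannot be told apart. Because the labels do not say that every tumor came from its own mouse, p-values measure the spread between these tumors.

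None of the 9 genes passed the test, and adjusted p ranged from 0.876 to 0.972 in edgeR's quasi-likelihood test. Over all genes, 0% passed as well (0 of 13901), while 320 genes (2.30%) had an unadjusted p under 0.05. DESeq2 called 2 genes at an adjusted p under 0.05, limma-voom called 0 with or without quality weights, and none of these 3 called a member. At an unadjusted p under 0.05 there were 2 members, Edn1 and Ddah1, both with the higher mean in R-propranolol-treated tumors, against 2.01% of all genes tested in that direction, and 0 members had the lower mean, against 0.288% of all genes tested. DESeq2 had 3 members at this level and limma-voom 0. In edgeR it was 0 members without R-propranolol replicate 2 or 5 or without vehicle replicate 2 or 4, and 1 without vehicle replicate 1. For no member were the groups free of overlap in CPM, against 1.26% of all genes tested (0.633% with R-propranolol higher and 0.626% with it lower). The median log2 fold change of the 9 genes was 0.75, against 0.03 over all genes tested. This median rested on 1 library, since it was -0.01 without R-propranolol replicate 2, against 0.007 over all genes tested, and it was -0.02 with limma-voom quality weights.

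Levels of different genes were compared per kilobase of exon. In R-propranolol-treated tumors Cav1 was the most abundant at 223 ± 63.5 CPM per kilobase (SD, n = 5), and in vehicle-treated tumors it stood at 234 ± 31.1 CPM per kilobase (SD, n = 4). Ece1 and Ddah2 followed, with Ddah2 at 62.3 ± 20.9 CPM per kilobase in R-propranolol-treated tumors (SD, n = 5) and 74.8 ± 0.795 in vehicle-treated tumors (SD, n = 4). In vehicle-treated tumors Ddah2 (74.1 to 75.8 CPM per kilobase) did not overlap Ece1 (61.6 to 71.1), whereas in R-propranolol-treated tumors the ranges of these genes overlapped. Both nitric oxide synthases lay at about the same level, Nos3 at 15.5 to 22.6 and Nos2 at 9.53 to 18.9 CPM per kilobase in vehicle-treated tumors, with overlapping ranges. In vehicle-treated tumors Ednrb and Ddah1 came next and overlapped each other, as did Edn1 and Ednra at the bottom. In R-propranolol-treated tumors the mean of Ednrb (22.8 CPM per kilobase) lay above that of Nos3 (17.0), with overlapping ranges. In vehicle-treated tumors the receptor B (3.25 to 7.01 CPM per kilobase) lay above the receptor A (0.295 to 1.01) without overlap.

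**Figure D1:**
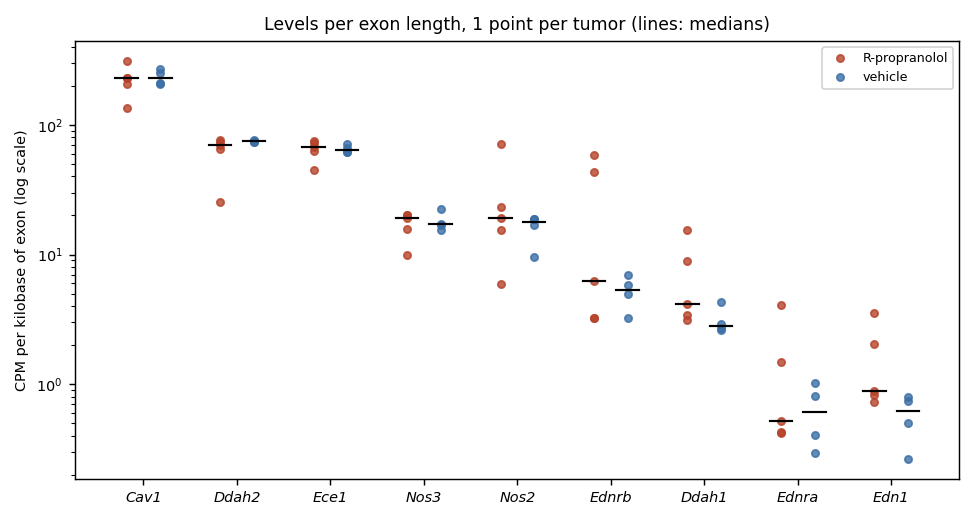
Levels of the 9 genes as CPM per kilobase of exon (vertical axis, log scale), with 1 point per tumor, R-propranolol-treated tumors left of vehicle-treated tumors and lines at the medians. Cav1 lies highest, with means of 223 CPM per kilobase in R-propranolol-treated and 234 in vehicle-treated tumors, and Edn1 and Ednra lie lowest, with 2 R-propranolol-treated tumors above all others for Ednrb, Ddah1, Ednra and Edn1.

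Nos3, the endothelial nitric oxide synthase, spans 24364810 to 24384474 on chromosome 5 (GRCm38, as for all genes here). In CPM it measured 64.7, 83.8, 79.3, 83.0 and 41.2 in R-propranolol replicates 1 to 5, against 93.3, 70.2, 71.3 and 64.0 in vehicle replicates 1 to 4. The groups overlapped, and R-propranolol replicate 5 was the lowest of all tumors. Nos3 had a fitted log2 difference of -0.09 (standard error 0.22) with a 95% interval from -0.58 to 0.41, which is 0.670 to 1.33 times the vehicle mean. Of its 4132 exon bases, Nos3 shares 1040 with the antisense transcript gene Gm15587 and 294 with the autophagy gene Atg9b on the other strand. Whether reads from those bases were counted for Nos3 is not known, because the sources used here do not state whether counting used strand.

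Nos2, the inducible synthase that macrophages make in inflammation, lies on chromosome 11 from 78920787 to 78960254. It stood at 83.7, 316, 102, 68.8 and 26.1 CPM in R-propranolol-treated tumors, against 42.0, 83.5, 74.6 and 82.5 CPM in vehicle-treated tumors. R-propranolol replicate 2 was the highest tumor and replicate 5 the lowest, so the treated range enclosed the vehicle range. The mean was 119 ± 113 CPM (SD, n = 5) in R-propranolol-treated and 70.7 ± 19.5 CPM (SD, n = 4) in vehicle-treated tumors. The log2 fold change of 0.75 (standard error 0.62) had a 95% interval from -0.65 to 2.16, and it was -0.01 without R-propranolol replicate 2 and 1.0 without replicate 5. Summed over 11 genes, macrophage markers were also high in R-propranolol replicates 2 and 5, at 3649 and 4162 CPM, against 794 to 1673 CPM in the other treated tumors and 859 to 2217 CPM in vehicle-treated tumors. Neutrophil markers, summed over 7 genes, were highest in replicate 2 at 351 CPM and lowest in replicate 5 at 42.6 CPM, against 133 to 148 CPM in the other treated tumors and 107 to 207 CPM in vehicle-treated tumors. Nos2 had the same highest and lowest tumors as the neutrophil markers, whereas the macrophage markers were high in both, and the part of either in its level was not tested.

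Cav1, the main structural protein of caveolae, lies on chromosome 6 from 17306335 to 17341452. Its level was 797, 710, 1076, 791 and 465 CPM in R-propranolol-treated tumors, against 719, 862, 716 and 930 CPM in vehicle-treated tumors. R-propranolol replicate 3 was the highest tumor and replicate 5 the lowest, and the medians nearly coincided at 791 CPM in R-propranolol-treated and 790 CPM in vehicle-treated tumors. Cav1 had a log2 difference of -0.07 (standard error 0.23), with a 95% interval from -0.59 to 0.45.

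Ddah2 and Ddah1 differed in how they varied. Ddah2, which lies on chromosome 17 from 35059035 to 35062095, stood at 112, 104, 122, 117 and 40.8 CPM in R-propranolol-treated tumors, against 118, 121, 120 and 118 CPM in vehicle-treated tumors. Its coefficient of variation was 33.6% in R-propranolol-treated tumors, 6.69% in those tumors without replicate 5, and 1.06% in vehicle-treated tumors. Of the 5 treated tumors, 4 lay below the lowest vehicle-treated tumor and replicate 3 lay above the highest, and the log2 fold change was -0.26 (standard error 0.28). Without replicate 5 it was -0.07 (standard error 0.06), so most of the difference in means came from that tumor.

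Ddah1, the enzyme that hydrolyzes asymmetric dimethylarginine, lies on chromosome 3 from 145758675 to 145894277. Its level was 13.6, 61.6, 16.7, 12.4 and 35.7 CPM in R-propranolol-treated tumors, against 11.7, 10.8, 17.0 and 10.4 CPM in vehicle-treated tumors. Replicates 2 and 5 of the treated group lay above every vehicle-treated tumor, and the other 3 lay inside the vehicle range. For Ddah1 the log2 fold change was 1.17 (standard error 0.51, 95% interval 0.02 to 2.31). It was 0.66 without R-propranolol replicate 2 and 1.05 without replicate 5, and the unadjusted p was above 0.05 in both cases. An exact two-sided permutation test that compared mean log2 CPM in all 126 splits gave p = 0.151, where the smallest p this design allows is 0.00794. Adjusted over all genes tested, that exact p was 1.

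**Figure D2:**
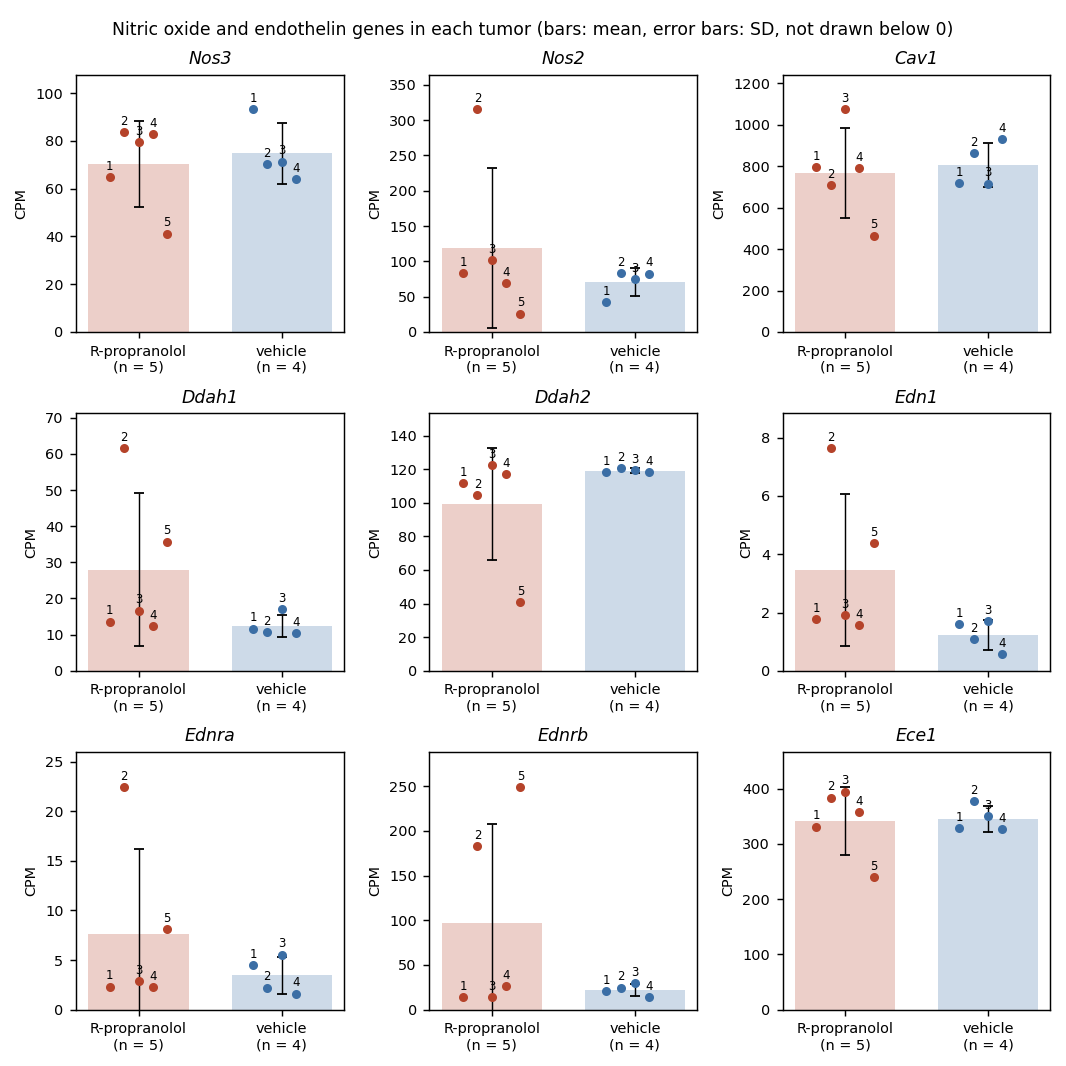
CPM of the 9 genes (vertical axes, each from 0) in every tumor (points, replicate numbers beside them), with bars at the mean and error bars of 1 SD over 5 R-propranolol-treated tumors and 4 vehicle-treated tumors. R-propranolol replicates 2 and 5 lie above all other tumors for Ddah1, Edn1, Ednra and Ednrb, and replicate 5 is the lowest tumor for Nos3, Nos2, Cav1, Ddah2 and Ece1.

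The endothelin ligand gene Edn1 and both receptor genes had their highest levels in the same 2 tumors, as Ddah1 did. Their promoters are therefore printed, together with that of Ddah1, as the 250 bases before the start of transcription in RefSeq (GRCm38.p6), 5′ to 3′ on the strand of the gene. The windows lie at chr13:42301226-42301475 (plus strand) for Edn1, chr8:77724453-77724702 (minus strand) for Ednra, chr14:103843702-103843951 (minus strand) for Ednrb and chr3:145758442-145758691 (plus strand) for Ddah1. The gene spans printed here come from another annotation, GENCODE, whose starts can differ. By those spans the Ednrb window lies wholly inside the gene, and the Ednra and Ddah1 windows overlap the first bases of theirs. Capitals mark CACCC on either strand, the core of the box that Krüppel-like factors bind.
Edn1 promoter: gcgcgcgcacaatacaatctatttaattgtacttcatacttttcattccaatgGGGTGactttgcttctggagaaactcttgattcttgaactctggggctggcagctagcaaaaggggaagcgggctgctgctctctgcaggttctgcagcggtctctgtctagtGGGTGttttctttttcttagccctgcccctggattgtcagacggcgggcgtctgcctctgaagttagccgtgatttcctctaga
Ednra promoter: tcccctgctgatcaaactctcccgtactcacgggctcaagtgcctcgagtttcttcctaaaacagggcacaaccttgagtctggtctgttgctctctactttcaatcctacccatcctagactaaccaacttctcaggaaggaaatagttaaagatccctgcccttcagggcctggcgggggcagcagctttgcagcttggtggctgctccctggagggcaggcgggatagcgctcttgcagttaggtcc
Ednrb promoter: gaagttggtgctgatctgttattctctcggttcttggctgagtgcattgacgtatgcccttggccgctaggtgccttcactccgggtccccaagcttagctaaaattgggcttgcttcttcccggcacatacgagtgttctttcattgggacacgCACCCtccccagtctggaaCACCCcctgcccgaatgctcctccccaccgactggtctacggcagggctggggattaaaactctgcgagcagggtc
Ddah1 promoter: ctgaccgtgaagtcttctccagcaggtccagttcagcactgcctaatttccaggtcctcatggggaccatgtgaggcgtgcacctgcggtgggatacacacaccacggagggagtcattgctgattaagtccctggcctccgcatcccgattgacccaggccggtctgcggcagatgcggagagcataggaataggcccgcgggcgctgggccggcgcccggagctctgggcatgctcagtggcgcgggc
The letters CACCC occurred at 2 places in the Edn1 window and at 2 places in the Ednrb window, and at none in those of Ednra and Ddah1, while 52.0% of all 32851 promoter windows of the same length held it. The AP-1 motif TGANTCA (in 6.75% of all windows), the GATA motif AGATAA (in 9.99%), the TATA box letters TATAAA (in 12.4%) and the hypoxia response core ACGTG (in 16.6%), each searched on both strands, occurred in none of these 4 windows. The GC content was 50.4% for Edn1, 54.8% for Ednra, 56.8% for Ednrb and 64% for Ddah1, against a median of 52.4% over all windows. Of the 9 genes, 7 had an entry in the promoter table.

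Edn1 encodes the precursor of endothelin-1 and lies on chromosome 13 from 42301476 to 42307990. It was rare, with 50, 191, 53, 38 and 66 counts in R-propranolol-treated tumors, against 37, 28, 43 and 12 counts in vehicle-treated tumors. Scaled for depth these were 1.76, 7.64, 1.90, 1.56 and 4.39 CPM in R-propranolol-treated tumors, against 1.59, 1.08, 1.71 and 0.570 CPM in vehicle-treated tumors. All treated tumors but replicate 4 exceeded the vehicle maximum, replicates 1 and 3 only narrowly. Replicate 4 lay inside the vehicle range. The mean was 3.45 ± 2.61 CPM (SD, n = 5) in R-propranolol-treated and 1.24 ± 0.522 CPM (SD, n = 4) in vehicle-treated tumors. For Edn1 the log2 fold change was 1.47 (standard error 0.58, 95% interval 0.15 to 2.80). It did not pass the test (adjusted p = 0.876, edgeR's quasi-likelihood test), and the exact two-sided permutation test gave p = 0.0714. Without R-propranolol replicate 2 the log2 fold change was 0.95, and without replicate 5 it was 1.36. Edn1 shares 35 of its 2139 exon bases with the antisense transcript gene Gm47118.

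Ednra, the receptor for endothelin-1 on smooth muscle, lies on chromosome 8 from 77663031 to 77724464. Its level was 2.33, 22.4, 2.87, 2.30 and 8.11 CPM in R-propranolol-treated tumors, against 4.48, 2.24, 5.56 and 1.61 CPM in vehicle-treated tumors. Replicates 2 and 5 of the treated group were the highest tumors, and the other 3 lay inside the vehicle range. The medians were 2.87 CPM in R-propranolol-treated and 3.36 CPM in vehicle-treated tumors, in the opposite order to the means of 7.61 and 3.47 CPM in the same groups. The log2 fold change of 1.13 (standard error 0.79) had a 95% interval from -0.65 to 2.91, and without replicate 2 it was 0.17. Ednra shares 91 of its 5476 exon bases with 4933431K23Rik on the other strand.

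Ednrb, the receptor of endothelium and of neural crest cells, lies on chromosome 14 from 103814625 to 103844402 and had the largest fitted difference of the 9 genes. Its level was 13.8, 183, 13.8, 26.6 and 249 CPM in R-propranolol-treated tumors, against 21.2, 24.7, 29.9 and 13.9 CPM in vehicle-treated tumors. Replicates 2 and 5 of the treated group lay far above all other tumors, replicates 1 and 3 lay just below the lowest vehicle-treated tumor, and replicate 4 lay inside the vehicle range. The mean was 97.3 ± 111 CPM (SD, n = 5) in R-propranolol-treated and 22.4 ± 6.74 CPM (SD, n = 4) in vehicle-treated tumors, while the medians were 26.6 and 22.9 CPM in the same groups. The fitted log2 fold change of Ednrb was 2.12 (standard error 0.96, 95% interval -0.05 to 4.28), and the exact two-sided permutation test gave p = 0.389. Without R-propranolol replicate 5 it was 1.39, and without replicate 2 it was 1.77. Of the cell types that arise from the neural crest, Schwann cell markers, summed over 5 genes, stood at 60.1 CPM in R-propranolol replicate 2 and 43.0 CPM in replicate 5, against 3.34 to 5.999 CPM in the other treated tumors and 5.41 to 14.98 CPM in vehicle-treated tumors. The sum of 5 melanocyte markers was at most 0.931 CPM in any tumor, and Tyr, which encodes tyrosinase, had 0 counts in every library. The part of Schwann cells in the level of Ednrb was not tested.

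Ece1, the protease that releases endothelin-1, lies on chromosome 4 from 137862237 to 137965229. It stood at 331, 384, 395, 358 and 240 CPM in R-propranolol-treated tumors, against 329, 377, 351 and 327 CPM in vehicle-treated tumors. The groups overlapped, and the log2 fold change was -0.02 (standard error 0.16) with a 95% interval from -0.37 to 0.33, the narrowest of the 9 genes. Without R-propranolol replicate 5 it was 0.08 (standard error 0.08).

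**Figure D3:**
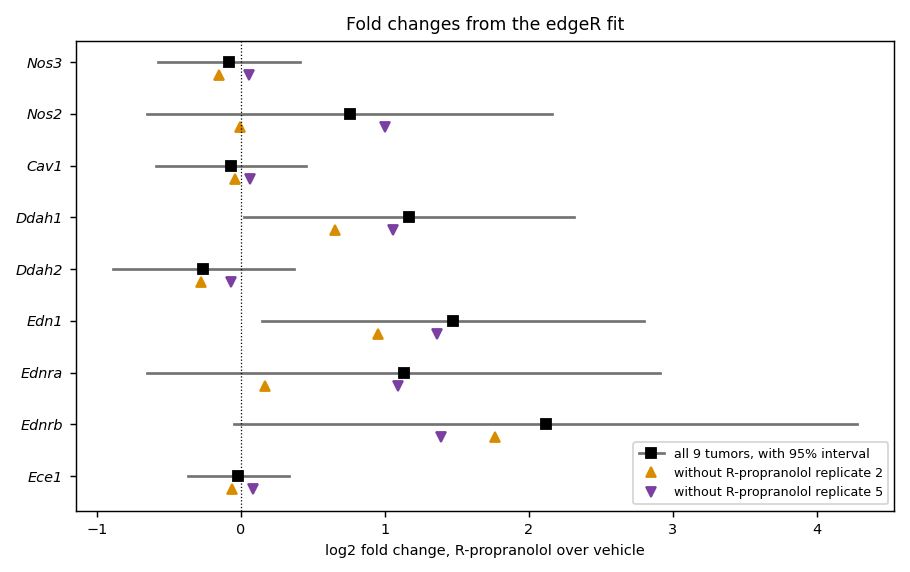
Log2 fold changes of the 9 genes, R-propranolol over vehicle (horizontal axis), from edgeR as squares with 95% intervals, and the same value without R-propranolol replicate 2 (triangles pointing up) or replicate 5 (triangles pointing down). The intervals of Edn1 (0.15 to 2.80) and Ddah1 (0.02 to 2.31) leave out 0, and Nos2 moves to -0.01 without replicate 2.

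The 9 genes thus fell into patterns across tumors, which are given as a description because they were noticed in these data. R-propranolol replicates 2 and 5 were the 2 highest tumors for 4 members, Edn1, Ednra, Ednrb and Ddah1, and for 18.9% of all genes tested. R-propranolol replicate 5 was the lowest tumor for the other 5 members, Nos3, Nos2, Cav1, Ddah2 and Ece1, and for 42.1% of all genes tested. Some cell type markers shared the first pattern. The same 2 tumors were the highest for 8 of 9 fibroblast markers, 10 of 11 macrophage markers, 8 of 11 mural cell markers, 7 of 12 endothelial markers and 3 of 3 Schwann cell markers tested. They were the 2 highest for none of the tested markers of neutrophils (0 of 6), skeletal muscle (0 of 11), adipocytes (0 of 8), hepatocytes (0 of 7), melanocytes (0 of 1) and keratinocytes (0 of 1). Fibroblast markers summed to 31328 CPM in R-propranolol replicate 2 and 16542 CPM in replicate 5, against 5230 to 6557 CPM in the other 3 treated tumors and 5868 to 8518 CPM in vehicle-treated tumors. Among endothelial markers, Pecam1, an adhesion protein of endothelial junctions, stood at 42.6, 167, 67.0, 34.1 and 142 CPM in R-propranolol-treated tumors, against 44.3, 41.1, 63.0 and 50.7 CPM in vehicle-treated tumors. Flt1, a receptor for vascular endothelial growth factor, ran the other way in both replicates 2 and 5. It stood at 522, 324, 615, 481 and 111 CPM in R-propranolol-treated tumors, against 443, 588, 518 and 633 CPM in vehicle-treated tumors. Replicate 5 was the lowest tumor for 2 of the 12 endothelial markers, Flt1 and Tie1. The part of these cell types in the levels of the 9 genes was not tested.

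With both R-propranolol replicates 2 and 5 left out, an alternative chosen after seeing the data, 3 treated tumors remained against 4. The log2 fold change was then 0.49 (standard error 0.37) for Edn1, 0.19 for Ddah1, -0.47 for Ednra and -0.31 for Ednrb, and no member had an unadjusted p under 0.05. Scaling to the summed endothelial markers in place of TMM gave, with all tumors, 1.46 for Edn1, 1.17 for Ddah1, 2.25 for Ednrb and -0.10 for Nos3. That sum weights abundant markers such as Flt1, whose log2 fold change was -0.41. Gene by gene, 10 of the 12 endothelial markers were higher with R-propranolol, and the median log2 fold change of the list was 1.04. The part of endothelial content in the levels of Edn1 and Ednrb was not tested.

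**Figure D4:**
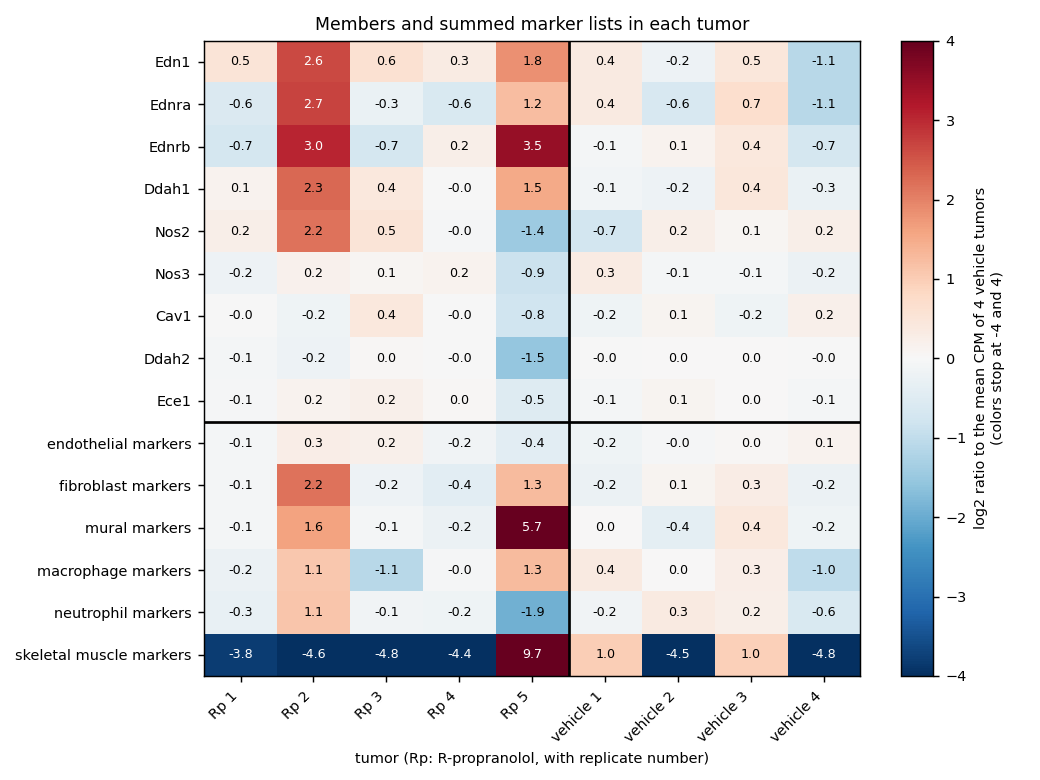
Log2 ratio of each tumor to the mean CPM of the 4 vehicle-treated tumors (color and printed number) for the 9 genes (upper block) and for the summed CPM of 6 marker lists (lower block), with R-propranolol-treated tumors (Rp) left of vehicle-treated tumors. R-propranolol replicates 2 and 5 are high for Edn1, Ednra, Ednrb and Ddah1 and for fibroblast, mural and macrophage markers, and skeletal muscle markers peak in replicate 5. Of the mural sum of 9246 CPM in replicate 5, 8693 CPM is Des, which skeletal muscle makes as well.

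The wider pathways were followed with 46 further genes in 5 lists, of which 41 had enough counts. By edgeR's quasi-likelihood test and limma-voom 0 of the 41 had an adjusted p under 0.05, as did 0 of the 37 to which DESeq2 gave one (it gave none to Nos1, Arg1, Prkg1 and Mme), and 1 had an unadjusted p under 0.05 in edgeR, against 2.30% of all genes tested. The fitted mean was higher with R-propranolol for 23 of the 41 genes and lower for 18, with a median log2 fold change of 0.06 against 0.03 over all genes tested. Scaling by library size alone gave medians of -0.09 for the 41 genes and -0.10 for all genes tested. At least 2-fold differences were fitted for 10 of the 41 genes (10.6% of all genes tested), and 7 of these 10 peaked in R-propranolol replicate 5. Choosing genes by a higher fitted mean favors such peaks. The share that peaked there among all genes at 2-fold or more was not counted.

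Among 9 tested genes around nitric oxide synthesis, 3 were higher with R-propranolol and 6 lower, with a median log2 fold change of -0.04. Ptrf, the caveolar coat gene also named Cavin1, had a fold change of 0.12 on the log2 scale (standard error 0.14), and -0.03 with library size alone. Nos1, the neuronal synthase that skeletal muscle also makes, stood at 4.62, 3.48, 4.67, 4.39 and 117 CPM in R-propranolol-treated tumors, against 4.78, 6.59, 4.21 and 7.40 CPM in vehicle-treated tumors. The high level of Nos1 lay in the tumor with the skeletal muscle genes, and leaving that tumor out gave a log2 fold change of -0.42 in place of 2.22. The part of skeletal muscle in the level of Nos1 was not tested.

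For supply of tetrahydrobiopterin, a cofactor of the synthases, none of 6 genes passed the test. Of these 4 were higher and 2 lower, between -0.51 and 0.28 in log2 fold change. Gchfr, which feeds back on the first enzyme of that synthesis, had -0.51 (standard error 0.30). Spr, the enzyme of the last step, had 0.21 (standard error 0.21), and Qdpr, which recycles the cofactor, had 0.06 (standard error 0.17). Without R-propranolol replicate 5, Spr stood at -0.01 and Qdpr at -0.04.

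In the list of arginine supply and dimethylarginine, 4 of 6 tested genes were higher with R-propranolol and 2 lower. Arg1, an arginase that competes with the synthases for arginine, stood at 3.39, 474, 4.10, 2.71 and 16.8 CPM in R-propranolol-treated tumors, against 2.67, 2.77, 20.7 and 2.23 CPM in vehicle-treated tumors. Its log2 fold change was 3.82 (standard error 1.87) with all tumors and -0.07 without R-propranolol replicate 2. The arginine transporter gene Slc7a2 stood at 1.48, 31.1, 1.44, 1.89 and 45.8 CPM in R-propranolol-treated tumors, against 2.80, 2.16, 3.61 and 0.570 CPM in vehicle-treated tumors, and its log2 fold change was 2.83 (standard error 1.25). Slc7a2 thus had the same 2 highest tumors as Edn1 and both receptors. Prmt1, a methyltransferase that makes dimethylarginine in proteins, was the most abundant of the list and had 0.01 (standard error 0.10), with -0.12 under library size alone.

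All 11 genes of cyclic GMP signaling, the route by which nitric oxide relaxes smooth muscle, had enough counts. Of these 8 were higher and 3 lower, and the median log2 fold change was 1.27, with 6 genes at 2-fold or more. All 6 were rare in vehicle-treated tumors, with means between 0.491 and 1.43 CPM. For all 6 the 2 highest tumors were R-propranolol replicates 2 and 5, as for 18.9% of all genes tested. These 6 were picked by a higher fitted mean with R-propranolol, and that choice favors treated tumors as the highest. For 5 of the 6 the median CPM was lower in R-propranolol-treated than in vehicle-treated tumors. Prkg1, the kinase that cyclic GMP activates in smooth muscle, was the gene with an unadjusted p under 0.05. Its level was 0.600, 3.12, 0.395, 0.369 and 232 CPM in R-propranolol-treated tumors, against 1.08, 0.347, 0.992 and 0.285 CPM in vehicle-treated tumors. The log2 fold change of Prkg1 was 6.11 (standard error 2.37) with all tumors and 0.71 (standard error 0.80) without R-propranolol replicate 5. Mrvi1, a substrate of that kinase, had 1.47 (standard error 0.83) with all tumors and 0.78 without replicate 5. Without both replicates 2 and 5, Prkg1 was -0.56 and Mrvi1 -0.33. Vasp, another substrate and the most abundant gene of the list, had -0.16 (standard error 0.23). Mural cell markers summed to 9246 CPM in R-propranolol replicate 5, 548 CPM in replicate 2 and 138 to 240 CPM in vehicle-treated tumors, and their part in these levels was not tested. Most of the sum in replicate 5, 8693 CPM, came from Des, which skeletal muscle makes as well.

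Of the other endothelin genes 9 of 11 were tested, with 4 higher, 5 lower and a median log2 fold change of -0.05. Mme, a peptidase that degrades endothelin among other peptides, stood at 2.47, 2.64, 1.58, 0.369 and 53.0 CPM in R-propranolol-treated tumors, against 3.23, 2.04, 3.33 and 1.42 CPM in vehicle-treated tumors. It had a log2 fold change of 2.25 with all tumors and -0.51 without R-propranolol replicate 5. Plcb1 and Plcb3, phospholipases downstream of Gq-coupled receptors, had log2 fold changes of -0.45 (standard error 0.42) for Plcb1 and -0.08 (standard error 0.17) for Plcb3. The genes of the other endothelin ligands had few counts, with 1 to 27 counts per tumor for Edn2 and 0 to 27 for Edn3. The 27 counts of Edn3 lay in R-propranolol replicate 5. Edn3 stood at 0 CPM in the other treated tumors and at most 0.095 CPM in vehicle-treated tumors.

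**Figure D5:**
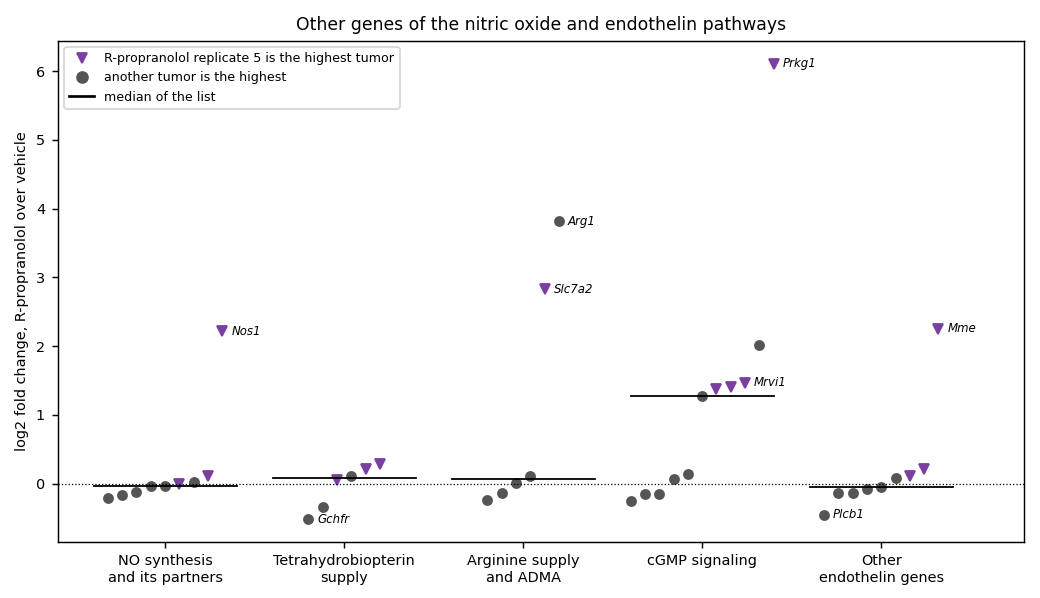
Log2 fold change, R-propranolol over vehicle (vertical axis), of the 41 tested pathway genes in 5 lists, with 1 point per gene, lines at the list medians, and triangles for genes whose highest tumor was R-propranolol replicate 5. Prkg1 lies highest at 6.11, and the medians of 4 lists lie between -0.05 and 0.08 while that of cyclic GMP signaling lies at 1.27.

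Across the 9 tumors, the genes outside the 9 members whose log2 CPM followed Nos3 most closely were Tigit (Pearson r = 0.97), Otub1 (0.96) and Usp22 (0.96). For Edn1 they were Ppp1r12c (0.99), Lrrc32 (0.97) and Jdp2 (0.97). These are the highest 3 values for each gene out of 13901 genes and are a description over 9 tumors that share R-propranolol replicate 5. Without that tumor, r was 0.92, 0.87 and 0.90 for Nos3 and 0.98, 0.97 and 0.96 for Edn1, over 8 tumors. Those 8 tumors still include R-propranolol replicate 2, the highest tumor for Edn1, and values without it were not computed. Spearman rank correlations over all 9 tumors were 0.98, 0.82 and 0.98 for Nos3 and 0.97, 0.97 and 0.70 for Edn1.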

How the data were processed

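RNA was sequenced from 5 tumors of R-propranolol-treated and 4 of vehicle-treated mice. Libraries were made by the authors (NEBNext Ultra) and sequenced as 150-base read pairs. Their processing notes name STAR, HTSeq, edgeR and mm10, and the deposited values are raw counts per gene symbol. The sources used here state neither tool versions nor annotation nor strandedness. Rows that name no gene stayed out of library sizes: no feature held 13.4% to 15.4% of all listed reads, ambiguous ones 1.81% to 1.98%, and those without a unique place 3.46% to 7.86%, highest in R-propranolol replicate 5.

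Genes were kept by filterByExpr (minimum count 10, minimum total 15) and tested with edgeR 4.0.16 in R 4.3.3 by TMM scaling and the quasi-likelihood test, adjusted by Benjamini and Hochberg over all genes. Standard errors and intervals come from the F statistic and its degrees of freedom. Log2 CPM used a prior count of 2. Exact permutation tests used all 126 splits. The code was tested on simulated data. Alternatives were DESeq2 1.42.0, limma 3.58.1, other scalings and filters, and leaving out tumors. The members and lists were chosen with earlier results of these data known.

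Of the pathway lists, the text names the genes at an unadjusted p under 0.05, and in each list the most abundant gene and the 2 genes of lowest p, and Edn2 and Edn3, which were added after their values were seen. Pecam1, Flt1, Tyr and Des were likewise added. The result of 1 gene that this rule names is not reported here. Coordinates and exon lengths are from GENCODE M21 on GRCm38, which is mm10, and promoter sequences from RefSeq. Titles of vehicle replicates 1 and 2 share a number whose meaning the labels do not give, and each was analysed as its own tumor.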

Additional observations from a re-analysis of the deposited data

Results flagged for a closer look

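A single tumor lay far from the rest of its group on the log2 scale, by Dixon's test at the 95% level, in 8 of 46 group and gene combinations. Among the members it was 2 of 18. Chance gives about 1 in 20 where combinations are independent and not selected. Here the pathway genes were named partly by their p or abundance in these data, and several flags share R-propranolol replicate 5, so that rate does not apply directly. Ddah2 was 40.8 CPM in R-propranolol replicate 5, against 104 to 122 CPM in the other 4 treated tumors. Nos2 was 42.0 CPM in vehicle replicate 1, against 74.6 to 83.5 CPM in the other 3 vehicle-treated tumors. In R-propranolol replicate 5, Nos1 was 117 CPM (others 3.48 to 4.67), Spr 88.9 CPM (others 43.8 to 53.7), Vasp 83.1 CPM (others 177 to 212) and Plcb3 90.4 CPM (others 146 to 156). In vehicle replicate 3, Arg1 was 20.7 CPM (others 2.23 to 2.77) and Plcb3 126 CPM (others 151 to 156).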

How the results depend on the processing

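No member passed an adjusted p of 0.05 under any of 21 alternatives, nor did any pathway gene with an adjusted p (DESeq2 gave none for 4 of 41, and filters changed which were tested), and over all genes DESeq2 called 2. Genes at an unadjusted p under 0.05, 320 in edgeR as reported, numbered 626 with no filter, 656 with DESeq2, 139 with limma-voom, 838 with its quality weights, 100 with vehicle replicates 1 and 2 summed, 639 without R-propranolol replicates 2 and 5 (an alternative chosen after seeing the data), and 103 (without vehicle replicate 2) to 737 (without R-propranolol replicate 4) when 1 tumor was left out. Members at that level, 2 as reported, were 1 with library size alone and 0 with limma-voom, with its quality weights, with the summed vehicle replicates and without both treated tumors. They were 0 to 3 with 1 tumor left out, and 0 without R-propranolol replicate 2 or 5 or without vehicle replicate 2 or 4. Pathway genes at that level, 1 as reported, were 2 with endothelial scaling, 3 with no filter, 0 with limma-voom or the summed replicates, and 0 to 2 with 1 tumor left out. Members with a higher mean, 5 as reported, were 4 to 8 with 1 tumor left out. Of genes at an unadjusted p under 0.05, 87.5% were higher as reported, 71.5% with library size alone, 62.6% with limma-voom and 59.9% with its weights.

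Log2 fold changes that turned sign did so mainly with R-propranolol replicates 2 and 5 (Rp2 and Rp5). With 1 tumor left out, values ran for Nos3 from -0.16 (without Rp2) to 0.053 (without Rp5), Nos2 from -0.011 (without Rp2) to 1.0 (without Rp5), Cav1 from -0.21 (without Rp3) to 0.062 (without Rp5), Ece1 from -0.065 (without Rp3) to 0.083 (without Rp5). Among pathway genes they ran for Nos1 from -0.42 (without Rp5) to 2.59 (without Rp3), Spr from -0.011 (without Rp5) to 0.33 (without Rp3), Qdpr from -0.040 (without Rp5) to 0.17 (without Rp2), Arg1 from -0.074 (without Rp2) to 5.29 (without vehicle 3), Prmt1 from -0.045 (without Rp4) to 0.059 (without vehicle 1), Vasp from -0.25 (without Rp2) to 0.013 (without Rp5), Mme from -0.51 (without Rp5) to 2.66 (without Rp4), Plcb3 from -0.15 (without vehicle 3) to 0.036 (without Rp5). Without both Rp2 and Rp5 they were 0.019 for Nos3, 0.14 for Cav1, -0.47 for Ednra, -0.31 for Ednrb, 0.064 for Ece1, -0.33 for Nos1, -0.52 for Slc7a2, -1.06 for Arg1, -0.56 for Prkg1, -0.33 for Mrvi1, -0.76 for Mme and 0.049 for Plcb3. With limma-voom quality weights they were 0.030 for Cav1, -0.085 for Ednra, -0.32 for Ednrb, -0.33 for Nos1, -0.041 for Qdpr, -0.15 for Slc7a2, -0.50 for Mme and 0.015 for Plcb3. With library size alone, which moved the median of all genes to -0.10, they were -0.025 for Ptrf, -0.093 for Qdpr and -0.12 for Prmt1. With no filter Prmt1 was -0.0055. The cause was not tested.

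The labels do not say whether tumors of the same replicate number are linked. Deviations of same-numbered tumors from their group means correlated at -0.30, 0.07, -0.64 and 0.53 for numbers 1 to 4. Those of differently numbered tumors ran from -0.56 to 0.74, so these correlations cannot decide whether tumors were paired. With the replicate block, 283 genes, 0 members and 0 pathway genes had an unadjusted p under 0.05, and 8 members had a higher mean. Signs turned under the block, with log2 fold changes of 0.065 for Nos3, 0.054 for Cav1, 0.084 for Ece1, -0.39 for Nos1, -0.012 for Spr, -0.063 for Qdpr, 0.012 for Vasp, -0.69 for Mme and 0.043 for Plcb3. Number 5 occurs only in the R-propranolol group, so that tumor is alone in its block and adds nothing to the fitted difference. Each of these genes also turned sign without a block when that tumor was left out, and 8 members then had a higher mean. The part of pairing in these turns was not tested. At 12 to 191 counts per tumor, Edn1 was the member with the fewest counts.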
